A study of Mus musculus with 16 samples.

Results

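Cadherins, the nonclustered protocadherins and the catenins that bind cadherin tails were followed on polysomes of prelimbic cortex (PL) projection neurons. Members were taken by gene symbol, as numbered Cdh and Pcdh genes, Celsr1 to Celsr3, Fat1 to Fat4, Dchs1 or Dchs2, and the alpha, beta and p120-family catenin genes, which gave 49 of the 39017 genes in each table. The rule itself uses symbols and no measured value, and Dchs2 was not analysed here. In all groups, C57BL/6J mice received the vector AAV-IV-GFPL10, which tags ribosomes, in PL. A retrogradely moving virus, CAV-Cre, went into 1 target per group, either NAc (nucleus accumbens), BLA (basolateral amygdala) or VTA (ventral tegmental area). RNA of polysomes captured by beads against GFP (IP) was set against total RNA (Input). PL-NAc had 3 IP and 3 Input libraries, as did PL-BLA, and PL-VTA had 2 IP and 2 Input libraries. The labels state no age or sex. Input is not selected for the tagged cells, so it also holds RNA of glia, vessels, interneurons and the tagged neurons themselves.

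Classical cadherins are calcium-dependent adhesion receptors whose cytoplasmic tails bind beta-catenin and p120-family catenins, and alpha-catenin links that complex to actin. Type II cadherins are expressed in different combinations by cortical layers and nuclei, and members of both types sit at synapses. Many nonclustered protocadherins are homophilic receptors with a separate cytoplasmic tail. The large Celsr, Fat and Dachsous cadherins act in planar polarity, axon guidance and tissue growth.

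The tables give for each gene 1 mean normalized count over all libraries of a projection, 1 log2 fold change of IP over Input and its standard error (SE). They hold no per-library values, so the spread between libraries enters only through the SE. The labels do not say whether replicates were separate animals, and p-values then measure only the spread between these samples. The sign was read as IP over Input because glial transcripts are negative. Median log2 fold changes were -2.43, -1.94 and -1.78 for 7 astrocyte markers and -3.16, -2.41 and -2.55 for 7 oligodendrocyte markers in PL-NAc, PL-BLA and PL-VTA, computed from the authors' deposited table of each projection. Of 6 excitatory projection neuron markers, 6, 5 and 0 were higher in the IP in that order, and 2 were lower in PL-VTA. Of 8 inhibitory markers, 8, 8 and 6 were lower. In bulk RNA of this kind, fewer cells of a type and less RNA per cell cannot be told apart.

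Of the 49 members, 48, 47 and 48 had reads in PL-NAc, PL-BLA and PL-VTA, and 44, 43 and 40 carried an adjusted p in the authors' deposited table of each. Adjusted p under 0.05 in the authors' DESeq2 Wald test was taken as a call. In PL-NAc 11 members were higher and 15 lower in the IP, beside 21.4% of all 17998 tested genes higher and 21.7% lower, 43.1% in all. PL-BLA had 9 higher and 8 lower, beside 20.8% and 20.2% of 17668 genes, 41% in all. PL-VTA had 9 higher and 4 lower, beside 11% and 10.5% of 15440 genes, 21.5% in all. The median log2 fold change of the members with an adjusted p was -0.31, -0.20 and -0.067 in PL-NAc, PL-BLA and PL-VTA, against -0.027, -0.024 and 0.019 for all tested genes. Recentring fold changes on the median of genes with a mean of at least 50 changed the member counts. They became 7 higher and 18 lower in PL-NAc and 8 higher and 13 lower in PL-BLA. In PL-VTA they stayed within 1.5 times of those above. Recentring moved every gene down, by 0.059 in PL-NAc and 0.055 in PL-BLA. Shares of all genes after recentring were not counted, so these member counts have none beside them.

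Cdh11, Cdh13, Celsr2 and Pcdh19 were higher in all 3 IPs, and Cdh12, Cdh19, Ctnna1 and Pcdh9 were lower in all 3. Among the 15425 genes with an adjusted p in all 3 tables, 8.76% were higher and 8.64% lower in all 3, beside these 4 and 4 of 40 members. Cdh22 was the 1 member higher in one projection and lower in another, a pattern of 0.882% of those genes. Of the 40 members tested in all 3, 30 were called in at least 1 projection, beside 58.6% of those genes, and 10 were called in none. The recentred counts of lower members in PL-NAc and PL-BLA include new calls of members otherwise uncalled and with means under 500. Among the other members, recentring also made 8 calls, all lower. In PL-NAc these were Cdh6 (-0.46, adjusted p = 0.042) and Pcdh7 (-0.25, adjusted p = 0.026), by the Wald test on recentred values. In PL-BLA they were Cdh7 (-0.49, adjusted p = 0.029), Cdh22 (-0.26, adjusted p = 0.0341), Fat3 (-0.45, adjusted p = 0.0332) and Pcdh20 (-0.396, adjusted p = 0.0458) in the same Wald test. In PL-VTA they were Cdh10 (-0.58, adjusted p = 0.0418) and Ctnnd1 (-0.74, adjusted p = 0.0296), again by the Wald test. Pcdh7 and Cdh10 were then also higher in one projection and lower in another.

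**Figure D1:**
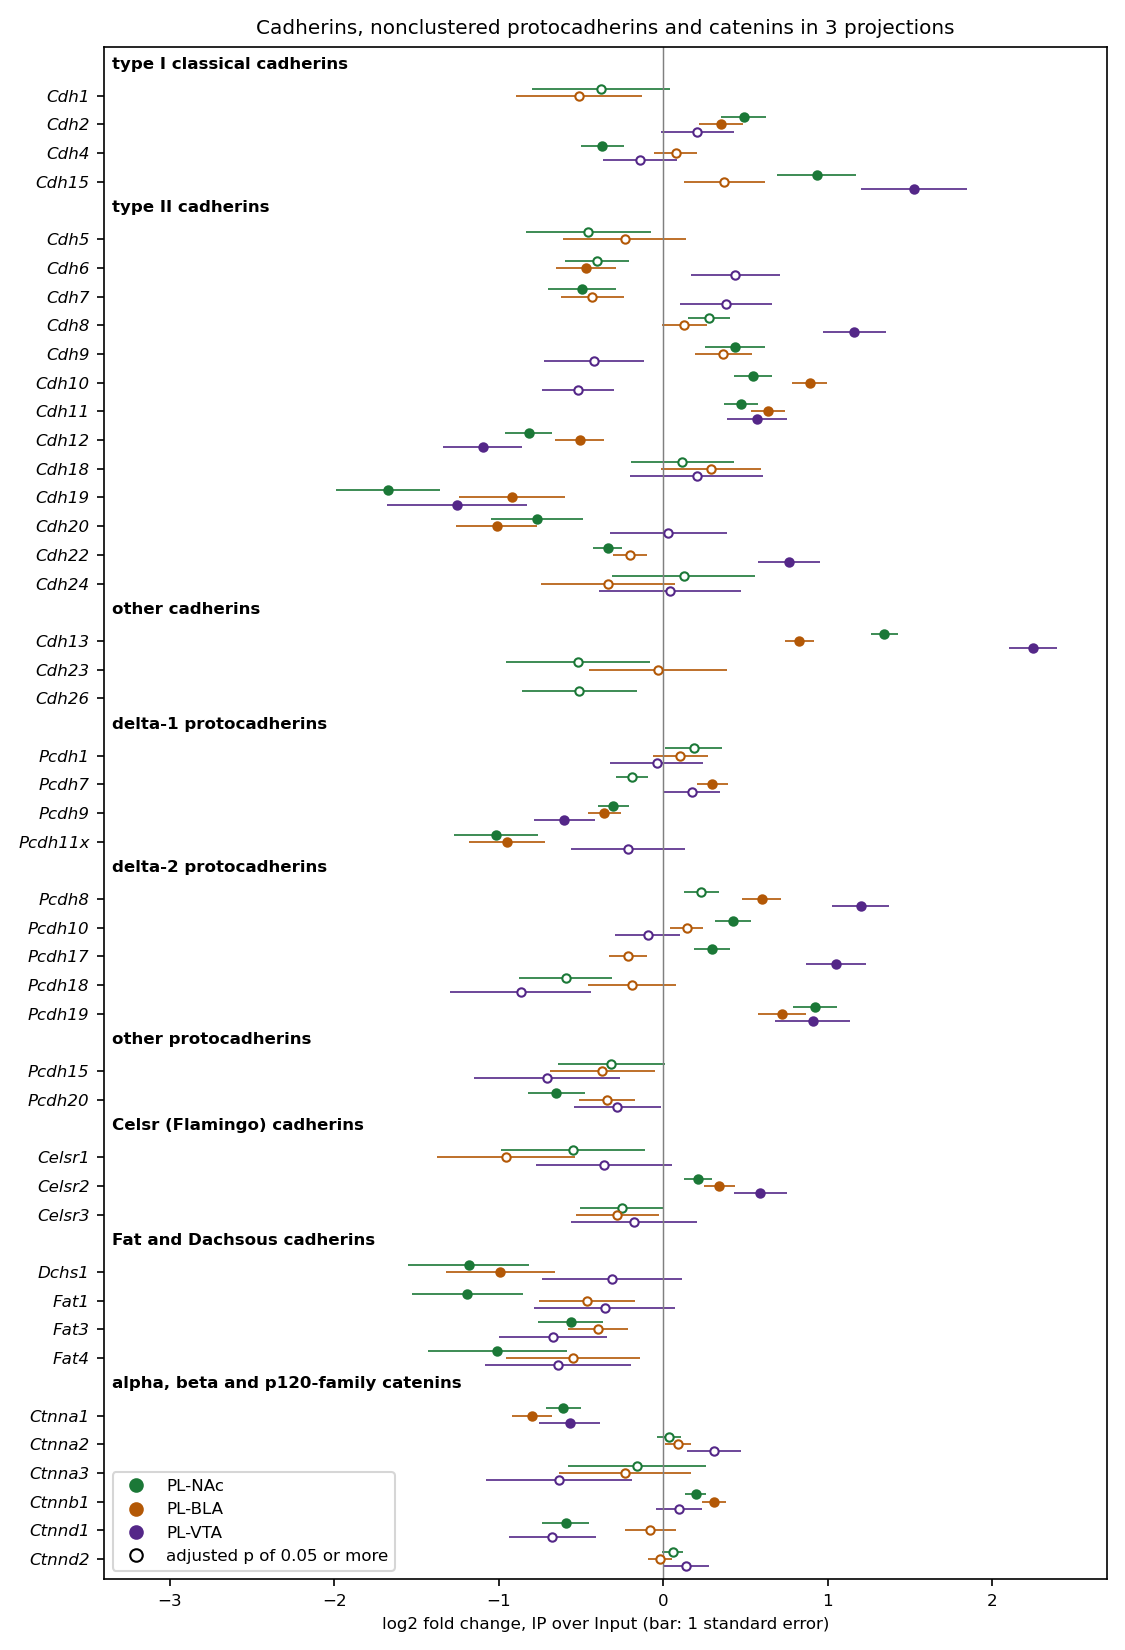
Log2 fold change of IP over Input (horizontal axis) for the 44 members with an adjusted p in at least 1 projection, grouped by role, with PL-NAc in green, PL-BLA in orange and PL-VTA in purple. Points are the deposited values, bars are 1 SE and open points have an adjusted p of 0.05 or more; Cdh13 reaches 2.25 in PL-VTA and Cdh19 -1.67 in PL-NAc.

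The highest log2 fold change of any member in PL-NAc and PL-VTA was that of Cdh13 (ENSMUSG00000031841, GRCm38 chromosome 8, 118283733 to 119324921), which encodes T-cadherin, a cadherin without a cytoplasmic tail that is anchored in the membrane by glycosylphosphatidylinositol. Its mean normalized count was 1715, 1798 and 3859 in PL-NAc, PL-BLA and PL-VTA in the authors' deposited table. The log2 fold change was 1.34 (SE 0.081) in PL-NAc, 0.83 (SE 0.087) in PL-BLA and 2.25 (SE 0.14) in PL-VTA in the authors' deposited table, or 2.54-fold, 1.78-fold and 4.76-fold. Adjusted p was 1.92e-59, 2.87e-20 and 1.36e-52 by DESeq2 in the authors' deposited table. Among all genes with an adjusted p, Cdh13 ranked 9 from the highest log2 fold change in PL-VTA, 86 in PL-NAc and 539 in PL-BLA.

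All pairs of projections differed for Cdh13. PL-VTA exceeded PL-NAc by 0.91 (95% interval 0.58 to 1.23, adjusted p = 9.34e-06) and PL-BLA by 1.42 (1.09 to 1.75, adjusted p = 1.54e-14), by a Wald z test of the difference with Benjamini-Hochberg adjustment over all genes. PL-NAc exceeded PL-BLA by 0.52 (0.28 to 0.75, adjusted p = 0.00279) in the same Wald z test. With equal numbers of IP and Input libraries, the mean count and the fold change imply the level in each arm. For Cdh13 the implied Input levels were 969, 1295 and 1341 normalized counts and the implied IP levels 2461, 2301 and 6377 in PL-NAc, PL-BLA and PL-VTA. The highest implied Input lay below the lowest implied IP. Fold changes in these tables appear shrunken toward 0, so implied levels are approximate, and levels of separate tables were normalized separately.

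Across the members, 2 of 47 differed between PL-NAc and PL-BLA, 6 of 48 between PL-NAc and PL-VTA and 5 of 47 between PL-BLA and PL-VTA. Of all genes, 1.14%, 2.29% and 3.05% differed. Against PL-BLA, 1 member was higher and 1 lower in PL-NAc, beside 0.391% and 0.751% of all genes. Against PL-VTA, 1 was higher and 5 lower in PL-NAc, beside 1.02% and 1.28%, and 1 was higher and 4 lower in PL-BLA, beside 1.56% and 1.49%. The 7 genes that differed in at least 1 pair were Cdh8, Cdh10, Cdh13, Cdh22, Pcdh7, Pcdh8 and Pcdh17. Comparisons that include PL-VTA share its libraries. Layer 5 extratelencephalic markers (Fezf2, Bcl11b, Pou3f1 and Crym) were higher in PL-VTA than in PL-NAc and than in PL-BLA in 4 of 4 cases. Their median differences in log2 fold change were -1.40 for PL-NAc minus PL-VTA and -2.17 for PL-BLA minus PL-VTA. Cdh8, Cdh13, Cdh22, Pcdh8 and Pcdh17 had the same sign in both comparisons. Cdh10 had the opposite sign, and Pcdh7 passed in neither. Layer 6 markers were higher in PL-VTA than in PL-BLA in 3 of 4 cases, at a median PL-BLA minus PL-VTA difference of -1.46. Some markers of other cell types were also less depleted in PL-VTA than in PL-NAc, at 3 of 7 for astrocytes, 3 of 7 for oligodendrocytes and 2 of 8 for inhibitory neurons, with median PL-NAc minus PL-VTA differences of -0.71, -0.58 and -0.72. Excitatory markers moved the other way, with 4 of 6 lower in PL-VTA than in PL-NAc and 2 of 6 lower than in PL-BLA. Against PL-BLA, 1 of 7 astrocyte markers differed from PL-VTA, Aldh1l1, which was higher in PL-BLA. The same comparison had 0 of 7 oligodendrocyte and 0 of 8 inhibitory markers. Median PL-BLA minus PL-VTA differences of these 3 lists were 0.15, 0.14 and -0.22. Between PL-NAc and PL-BLA, 4 of 4 layer 5 and 4 of 4 layer 6 markers were higher in PL-NAc, at median differences of 0.87 and 1.18. The part of these marker lists in the cadherin differences was not tested.

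**Figure D2:**
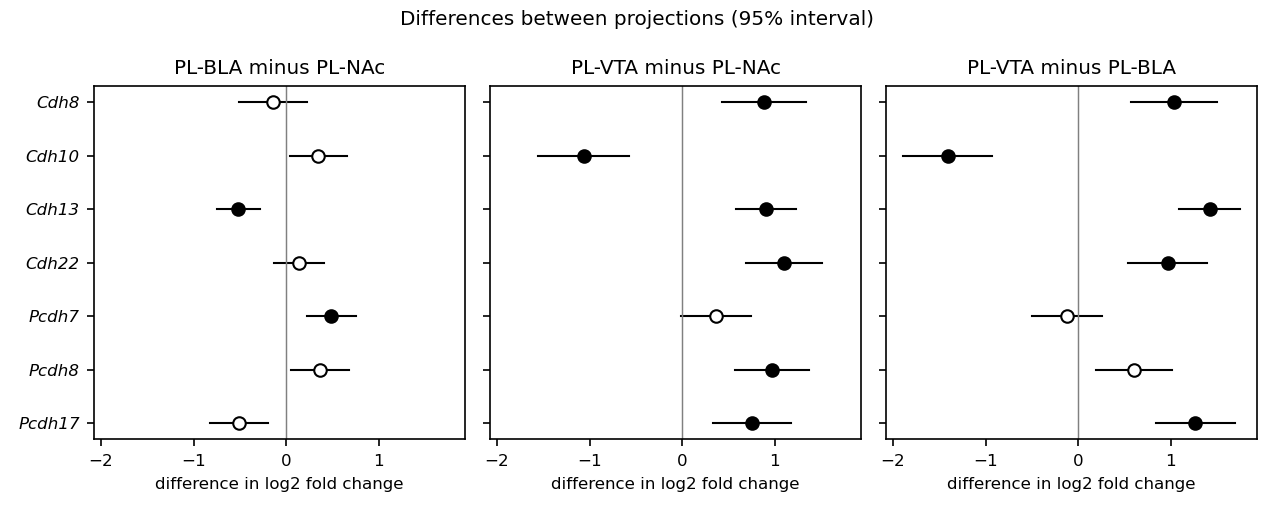
Difference in log2 fold change between projections (horizontal axis, 95% interval as a line) for the 7 members that differed in at least 1 pair; filled points have an adjusted p under 0.05. Cdh10 lies below 0 in both panels with PL-VTA (-1.06 and -1.41), where Cdh8, Cdh13, Cdh22, Pcdh8 and Pcdh17 lie above 0.

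Type II cadherins held 3 of the 7. Cdh8 (chromosome 8, 99024471 to 99416471), a synaptic type II cadherin, was 1.16 (SE 0.19, adjusted p = 4.9e-08 by DESeq2) in PL-VTA in the authors' deposited table. In PL-NAc it stood at 0.28 (SE 0.13) and in PL-BLA at 0.13 (SE 0.14), neither called, in the authors' deposited table. The PL-VTA value exceeded that of PL-NAc by 0.89 (95% interval 0.44 to 1.34, adjusted p = 0.00852) and that of PL-BLA by 1.03 (0.57 to 1.497, adjusted p = 0.000885), by the Wald z test. Implied Input levels of Cdh8 were 369, 464 and 458 normalized counts, while the implied IP level was 447, 508 and 1026 in PL-NAc, PL-BLA and PL-VTA.

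Cdh22 (chromosome 2, 165111507 to 165234853), a brain-enriched type II cadherin, turned from lower to higher. It was -0.34 (SE 0.090, adjusted p = 0.000676) in PL-NAc, -0.20 (SE 0.10, not called) in PL-BLA and 0.76 (SE 0.19, adjusted p = 0.000638) in PL-VTA by DESeq2 in the authors' deposited table. PL-VTA exceeded PL-NAc by 1.103 (95% interval 0.69 to 1.51, adjusted p = 2.8e-05) and PL-BLA by 0.97 (0.54 to 1.39, adjusted p = 0.000597) in the Wald z test. Its implied IP level was 2011 normalized counts in PL-VTA against 960 and 928 in PL-NAc and PL-BLA, with implied Input levels between 1067 and 1213.

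Cdh10 (chromosome 15, 18818947 to 19014236), another type II cadherin, ran opposite. It rose to 0.55 (SE 0.12, adjusted p = 1.63e-05) in PL-NAc and 0.89 (SE 0.11, adjusted p = 1.31e-15) in PL-BLA, and was -0.52 (SE 0.22, adjusted p = 0.0766) in PL-VTA, by DESeq2 in the authors' deposited table. The log2 fold change in PL-NAc minus that in PL-VTA was 1.06 (95% interval 0.57 to 1.55, adjusted p = 0.00192), and PL-BLA minus PL-VTA was 1.41 (0.93 to 1.89, adjusted p = 1.68e-06), by the Wald z test. Between PL-NAc and PL-BLA the difference was -0.35 (-0.66 to -0.036, adjusted p = 0.569). Implied IP levels of Cdh10 were 714, 1005 and 382 normalized counts in PL-NAc, PL-BLA and PL-VTA beside implied Inputs of 489, 542 and 548.

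**Figure D3:**
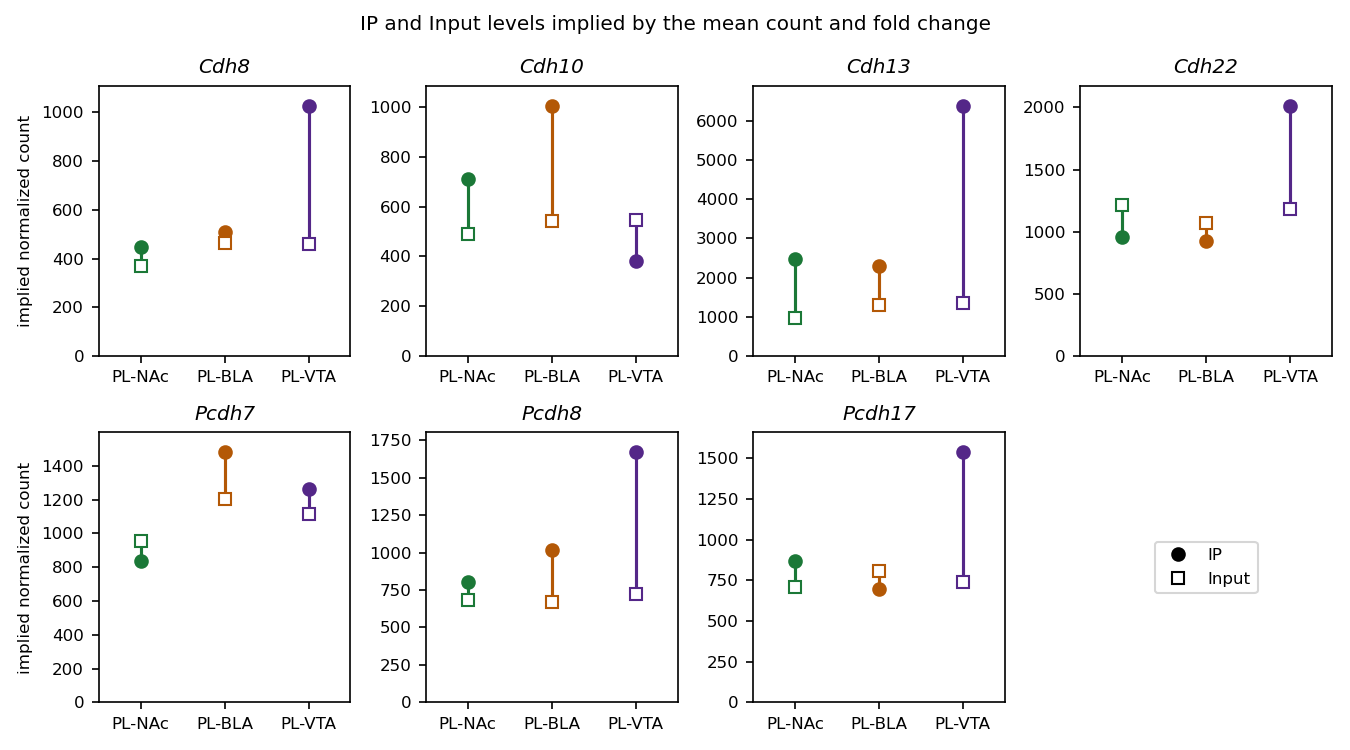
Normalized counts implied for IP (circles) and Input (squares) by the deposited mean and fold change in each projection, for the 7 members that differed in at least 1 pair; vertical axes start at 0 and no error is shown. Cdh13 IP stands at 6377 in PL-VTA over an Input of 1341, and Cdh10 IP falls below its Input in PL-VTA.

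Among delta-2 protocadherins, Pcdh8 and Pcdh17 also stood higher in PL-VTA. Pcdh8 (chromosome 14, 79766775 to 79771312) encodes arcadlin, an activity-regulated protocadherin that promotes internalization of N-cadherin at synapses. It was 0.23 (SE 0.10, adjusted p = 0.0594) in PL-NAc, 0.599 (SE 0.12, adjusted p = 2.63e-06) in PL-BLA and 1.20 (SE 0.18, adjusted p = 4.46e-10) in PL-VTA by DESeq2 in the authors' deposited table. PL-VTA exceeded PL-NAc by 0.97 (95% interval 0.57 to 1.37, adjusted p = 0.000307), and its 0.60 (0.19 to 1.02) over PL-BLA did not pass (adjusted p = 0.116), in the Wald z test. Its PL-NAc value was called when only genes with a mean of at least 50 were adjusted (adjusted p = 0.0469). The implied Input levels were 684, 673 and 725 normalized counts, with IP at 804, 1019 and 1667. Gm9748 on the opposite strand overlaps 9.61% of the exonic bases of Pcdh8, and the library kit does not mark strand.

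Pcdh17 (chromosome 14, 84443563 to 84539002), which acts in presynaptic assembly, was 0.297 (SE 0.11, adjusted p = 0.0165) in PL-NAc, -0.21 (SE 0.12, adjusted p = 0.139) in PL-BLA and 1.05 (SE 0.18, adjusted p = 3.33e-07) in PL-VTA by DESeq2 in the authors' deposited table. It exceeded PL-BLA by 1.26 (95% interval 0.84 to 1.69, adjusted p = 1.4e-06) and PL-NAc by 0.75 (0.34 to 1.17, adjusted p = 0.0227) in PL-VTA, by the Wald z test. PL-NAc minus PL-BLA was 0.51 (0.197 to 0.82, adjusted p = 0.1003) and did not pass. The PL-NAc call of Pcdh17 did not survive recentring (0.24, adjusted p = 0.0624).

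Pcdh19, the X-linked delta-2 member that binds N-cadherin, rose in every IP. It was 0.93 (SE 0.13), 0.72 (SE 0.15) and 0.91 (SE 0.23) in PL-NAc, PL-BLA and PL-VTA in the authors' deposited table, and no pair of projections passed the Wald z test, with 95% intervals of -0.19 to 0.59 for PL-NAc minus PL-BLA, -0.497 to 0.53 for PL-NAc minus PL-VTA and -0.72 to 0.34 for PL-BLA minus PL-VTA. Pcdh10 rose in PL-NAc at 0.43 (SE 0.11) and was 0.14 (SE 0.10) in PL-BLA and -0.095 (SE 0.198) in PL-VTA, neither called, in the authors' deposited table. Pcdh18 was not called in any projection. Of the 5 delta-2 members, 3, 2 and 3 rose and none fell in PL-NAc, PL-BLA and PL-VTA, beside 21.4%, 20.8% and 11% of all tested genes that were higher.

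The RefSeq promoter table (GRCm38.p6) held 33 of the 49 members. Promoter windows are shown for Cdh8, Pcdh8 and Pcdh17, which stood higher in PL-VTA than in another projection, and Cdh10, which stood lower. They are the 250 bases before the RefSeq start, 5′ to 3′ on the gene's strand. Cdh13 and Cdh22 also stood higher in PL-VTA, and Pcdh7 differed between PL-NAc and PL-BLA alone. Cdh13 has no promoter entry, and the windows of Cdh22 and Pcdh7 overlap an annotated exon and are not shown. Capitals mark a TATA box (TATAAA) or a GC box (GGGCGG), searched on both strands. The cyclic AMP response element TGACGTCA and the E-box CAGATG were searched in the same way and were not among these letters. The windows are chr8:99416472-99416721 on the minus strand for Cdh8, chr14:79771313-79771562 on the minus strand for Pcdh8, chr14:84443313-84443562 on the plus strand for Pcdh17 and chr15:18820079-18820328 on the plus strand for Cdh10, whose RefSeq start lies inside the GENCODE gene span.
Cdh8: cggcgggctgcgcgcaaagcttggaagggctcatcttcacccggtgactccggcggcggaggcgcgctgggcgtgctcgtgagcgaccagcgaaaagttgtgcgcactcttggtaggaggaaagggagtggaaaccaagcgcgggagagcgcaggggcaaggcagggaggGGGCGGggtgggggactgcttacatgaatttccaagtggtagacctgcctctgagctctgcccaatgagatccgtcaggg
Pcdh8: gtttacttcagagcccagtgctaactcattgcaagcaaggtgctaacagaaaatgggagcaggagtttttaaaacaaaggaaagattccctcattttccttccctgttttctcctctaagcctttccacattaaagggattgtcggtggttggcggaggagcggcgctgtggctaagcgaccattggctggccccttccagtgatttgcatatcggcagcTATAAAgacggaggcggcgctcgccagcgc
Pcdh17: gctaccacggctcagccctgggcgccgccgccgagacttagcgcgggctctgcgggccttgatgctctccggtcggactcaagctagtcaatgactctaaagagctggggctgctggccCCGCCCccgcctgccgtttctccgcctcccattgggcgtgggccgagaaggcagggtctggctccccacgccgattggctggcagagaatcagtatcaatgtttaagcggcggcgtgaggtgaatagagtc
Cdh10: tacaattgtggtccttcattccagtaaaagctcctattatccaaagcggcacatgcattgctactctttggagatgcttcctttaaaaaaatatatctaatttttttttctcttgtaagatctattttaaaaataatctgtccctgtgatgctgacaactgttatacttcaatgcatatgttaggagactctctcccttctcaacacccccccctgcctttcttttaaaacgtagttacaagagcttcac
Cdh8 and Pcdh17 each carry a GC box and are 64.4% and 64.8% G or C, Pcdh8 carries a TATA box at 51.2%, and Cdh10 carries none of the 4 motifs at 36.8%. Of 27025 promoters, 1 per gene symbol, 32.9% hold a GC box in this window and 13.0% a TATA box, beside 13 and 2 of the 33 members. The element TGACGTCA stands in 1.62% of promoters and 0 of 33 members, and CAGATG in 14.5% and 3 of 33. Each window shown holds at most 1 kind of motif, and a match is a description of the sequence.

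Pcdh7, a delta-1 protocadherin, differed between PL-NAc and PL-BLA. It was -0.19 (SE 0.096, adjusted p = 0.102) in PL-NAc, 0.2997 (SE 0.092, adjusted p = 0.00391) in PL-BLA and 0.18 (SE 0.17, adjusted p = 0.537) in PL-VTA by DESeq2 in the authors' deposited table. PL-BLA exceeded PL-NAc by 0.49 (95% interval 0.23 to 0.75, adjusted p = 0.0255) in the Wald z test. Glial markers moved the same way, with 5 of 7 astrocyte and 5 of 7 oligodendrocyte markers less depleted in PL-BLA than in PL-NAc, and their part in the Pcdh7 value was not tested. An antisense gene, 4932441J04Rik, overlaps 21.1% of the exonic bases of Pcdh7, and the library kit does not mark strand.

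The other delta-1 members were lower or near 0. Pcdh9 was -0.30 (SE 0.095), -0.36 (SE 0.10) and -0.60 (SE 0.19) in PL-NAc, PL-BLA and PL-VTA in the authors' deposited table, a fall in each. Pcdh11x, on the X chromosome, fell to -1.02 (SE 0.25) in PL-NAc and -0.95 (SE 0.23) in PL-BLA and was -0.22 (SE 0.35, not called) in PL-VTA in the authors' deposited table. Pcdh1 was not called, at 0.19 (SE 0.18), 0.105 (SE 0.17) and -0.039 (SE 0.28), as listed in the authors' deposited table. Pcdh20, a protocadherin known from layer 4 neurons, fell in PL-NAc at -0.65 (SE 0.17) and was -0.34 (SE 0.17) and -0.28 (SE 0.27) in PL-BLA and PL-VTA, neither called, in the authors' deposited table.

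Among type I cadherins, Cdh2 encodes N-cadherin, the main classical cadherin of excitatory synapses. It rose to 0.49 (SE 0.14, adjusted p = 0.00125) in PL-NAc and 0.35 (SE 0.13, adjusted p = 0.0218) in PL-BLA and was 0.21 (SE 0.22, adjusted p = 0.591) in PL-VTA, by DESeq2 in the authors' deposited table. Recentring ended the PL-BLA call (0.296, adjusted p = 0.0599). Cdh15, M-cadherin, best known from muscle, had mean counts of 92.7, 92.1 and 153 and rose at 0.93 (SE 0.24) in PL-NAc and 1.53 (SE 0.32) in PL-VTA in the authors' deposited table. In PL-BLA it stood at 0.37 (SE 0.25), without a call, in the authors' deposited table. Its differences between projections did not pass, at -0.59 for PL-NAc minus PL-VTA (95% interval -1.38 to 0.19) and -1.16 for PL-BLA minus PL-VTA (-1.95 to -0.36, adjusted p = 0.112, Wald z test). Cdh4, R-cadherin, fell slightly in PL-NAc at -0.37 (SE 0.13, adjusted p = 0.0134) and was 0.076 (SE 0.13) and -0.14 (SE 0.23) in PL-BLA and PL-VTA by DESeq2 in the authors' deposited table. The epithelial cadherins Cdh1 and Cdh3 had means between 0.591 and 7.25 in the authors' deposited table.

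Among the remaining type II cadherins, Cdh11 rose throughout, at 0.47 (SE 0.10), 0.64 (SE 0.105) and 0.57 (SE 0.18) in PL-NAc, PL-BLA and PL-VTA in the authors' deposited table. Cdh12 fell throughout, at -0.82 (SE 0.14), -0.51 (SE 0.15) and -1.098 (SE 0.24), or 56.7%, 70.3% and 46.7% of Input, in the authors' deposited table. Cdh9, known from hippocampal mossy fibre synapses, rose in PL-NAc at 0.44 (SE 0.18, adjusted p = 0.0377) and was 0.37 (SE 0.17) in PL-BLA and -0.42 (SE 0.30) in PL-VTA, neither called, by DESeq2 in the authors' deposited table. With recentring the Cdh9 call in PL-NAc ended (0.38, adjusted p = 0.0782).

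Cdh6 and Cdh7 each had 1 call, both lower. Cdh6 was -0.40 (SE 0.19) in PL-NAc, -0.47 (SE 0.18, the 1 call) in PL-BLA and 0.44 (SE 0.27) in PL-VTA in the authors' deposited table. Cdh7 was -0.49 (SE 0.21, adjusted p = 0.0402) in PL-NAc, -0.43 (SE 0.19) in PL-BLA and 0.38 (SE 0.28) in PL-VTA by DESeq2 in the authors' deposited table. The Cdh7 call ended when p-values were adjusted over every gene (adjusted p = 0.0518), and its PL-BLA value was called among genes with a mean of at least 50 (adjusted p = 0.0451). For PL-NAc minus PL-VTA the differences were -0.84 (95% interval -1.495 to -0.19) for Cdh6 and -0.87 (-1.56 to -0.19) for Cdh7, with adjusted p of 0.274 and 0.277 in the Wald z test.

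Cdh19 and Cdh20, type II cadherins found in glial lineages, were lower. Cdh19 was -1.67 (SE 0.32), -0.92 (SE 0.32) and -1.25 (SE 0.43) in PL-NAc, PL-BLA and PL-VTA in the authors' deposited table, or 31.4%, 52.9% and 41.9% of Input. Its means were 49.2, 45.1 and 51.1, so its PL-NAc and PL-BLA calls drop out at a mean of at least 50. Cdh20 fell to -0.77 (SE 0.28) in PL-NAc and -1.01 (SE 0.25) in PL-BLA and was 0.032 (SE 0.36) in PL-VTA in the authors' deposited table. Oligodendrocyte markers fell in 7 of 7 cases in each projection, and their part in these values was not tested. Cdh18, Cdh24 and, among other protocadherins, Pcdh15 were not called anywhere. Cdh5, the endothelial VE-cadherin, had means of 2.83, 3.37 and 3.80 in the authors' deposited table and no call.

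Among the large cadherins, Celsr2, a seven-pass transmembrane cadherin of the Flamingo family, rose at 0.21 (SE 0.086, adjusted p = 0.0331), 0.34 (SE 0.095, adjusted p = 0.00127) and 0.59 (SE 0.16, adjusted p = 0.00241) in PL-NAc, PL-BLA and PL-VTA by DESeq2 in the authors' deposited table. Its PL-NAc call ended with recentring (0.15, adjusted p = 0.142). Celsr3, which guides forebrain axon tracts in development, was -0.25 (SE 0.26), -0.28 (SE 0.25) and -0.18 (SE 0.38) and never called in the authors' deposited table, and Celsr1 was not called either.

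Fat and Dachsous cadherins fell in PL-NAc. All 4 with an adjusted p were lower there: Dchs1 at -1.18 (SE 0.37), Fat1 at -1.19 (SE 0.34), Fat3 at -0.56 (SE 0.20) and Fat4 at -1.01 (SE 0.42) in the authors' deposited table. In PL-BLA 1 of 4 fell, Dchs1 at -0.99 (SE 0.33), and in PL-VTA 0 of 4 were called, with values from -0.67 to -0.31, in the authors' deposited table. Among all tested genes, 21.7%, 20.2% and 10.5% were lower in PL-NAc, PL-BLA and PL-VTA. In PL-NAc the means of Dchs1, Fat1 and Fat4 were 30.5, 40.3 and 15.4, so their calls drop out at a mean of at least 50. The mean of Dchs1 in PL-BLA was 43.1, and its call there drops out too. No Fat or Dachsous gene passed the Wald z test between projections. These genes are scarce, with means from 15.1 to 197 normalized counts, and astrocyte markers fell in 7, 6 and 7 of 7 cases in PL-NAc, PL-BLA and PL-VTA; the part of glial RNA was not tested. The Fat4 call ended when adjusted over every gene (adjusted p = 0.052). Dchs1 binds Fat4 in trans as ligand and receptor.

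The catenins link cadherin tails to actin and signalling. Ctnnb1, beta-catenin, had a mean of 4876, 4952 and 4541 normalized counts and was 0.197 (SE 0.061), 0.31 (SE 0.071) and 0.096 (SE 0.14), called in PL-NAc and PL-BLA, in the authors' deposited table. Recentring ended the PL-NAc call (0.14, adjusted p = 0.0542), and Ulk4 on the opposite strand overlaps 14.6% of its exonic bases. Ctnna1, the broadly expressed alpha-E-catenin, fell at -0.61 (SE 0.11), -0.797 (SE 0.12) and -0.57 (SE 0.19) in PL-NAc, PL-BLA and PL-VTA in the authors' deposited table. Ctnna2, the neuronal alpha-N-catenin, was 0.037 (SE 0.072), 0.091 (SE 0.077) and 0.31 (SE 0.16) with no call in the authors' deposited table.

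In the p120 family, Ctnnd2, the neural delta-catenin, was 0.058 (SE 0.065), -0.021 (SE 0.074) and 0.14 (SE 0.14) with no call in the authors' deposited table. Ctnnd1, p120-catenin, fell in PL-NAc at -0.59 (SE 0.14) and was -0.077 (SE 0.15) in PL-BLA and -0.68 (SE 0.26, adjusted p = 0.0501) in PL-VTA by DESeq2 in the authors' deposited table. The PL-VTA value of Ctnnd1 was called when only genes with a mean of at least 50 were adjusted (adjusted p = 0.0423) as well as with recentring. Gm28635, annotated on the same strand, shares 61.2% of the exonic bases of Ctnnd1, so reads of the pair may not be separable. Ctnna3 was not called, and no catenin passed the Wald z test between projections.

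Levels were compared between genes as mean normalized counts per exonic kilobase of GENCODE M21, an annotation that may not be the one used for counting. Ctnnb1 was first in every projection at 939, 954 and 875 per kilobase in PL-NAc, PL-BLA and PL-VTA. Ctnna2 (326, 348 and 390) and Ctnnd2 (331, 345 and 356) followed in the first 2, and in PL-VTA Cdh22 came between Ctnnb1 and Ctnna2 at 432. Over IP and Input together, Cdh22 was the highest cadherin in all 3, at 293 and 269 in PL-NAc and PL-BLA. In the implied IP level alone, Cdh13 stood at 568 and Cdh22 at 543 per kilobase in PL-VTA, against 219 and 259 in PL-NAc and 205 and 251 in PL-BLA. Cdh13 moved from 153 and 160 to 344 per kilobase in PL-VTA. Without per-library values the spread of these levels is unknown, and neighbours such as Ctnna2 and Ctnnd2 cannot be ordered. Cdh3, Cdh16, Cdh17, Fat2 and Pcdh12 had no adjusted p in any projection, and Cdh16 had no reads. Cdh26 was tested in PL-NAc alone, and Cdh1, Cdh5 and Cdh23 in PL-NAc and PL-BLA; none of these 4 was called.

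**Figure D4:**
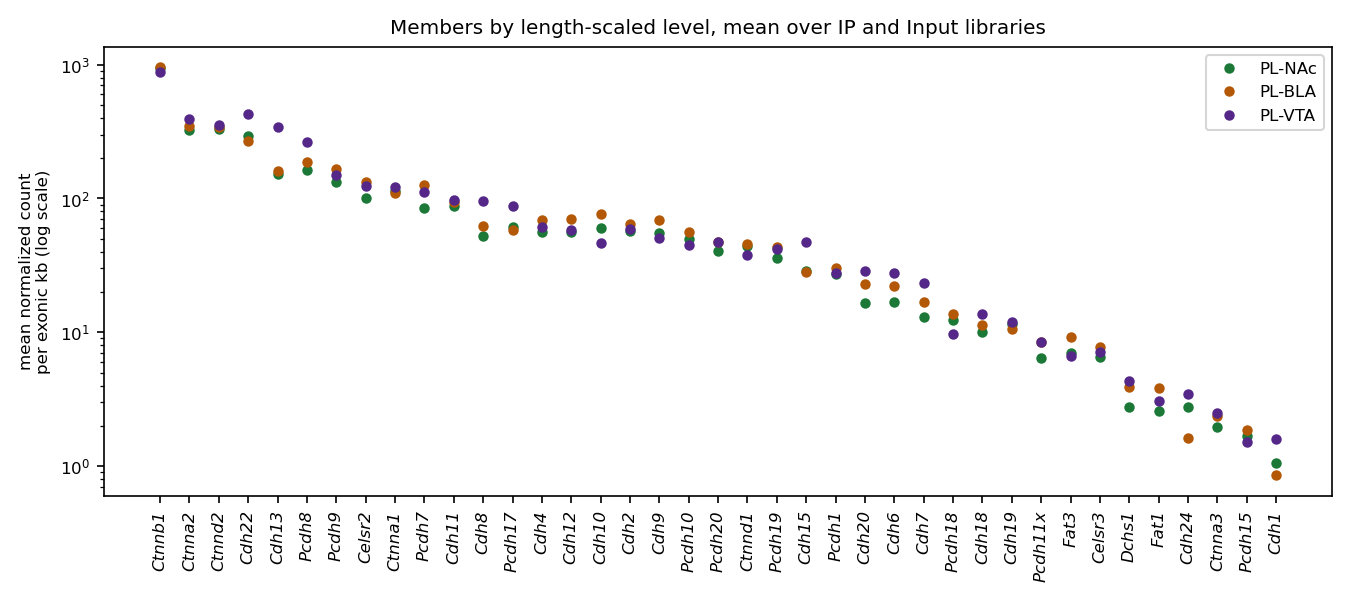
Mean normalized count per exonic kilobase over IP and Input libraries (log axis) for the 39 members whose average over projections is at least 1, in green for PL-NAc, orange for PL-BLA and purple for PL-VTA. Ctnnb1 lies highest in each projection, and Cdh13, Cdh22 and Pcdh8 lie higher in the PL-VTA table than in the other two.

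Of 23 junction partners of cadherins, 3, 4 and 1 rose and 7, 7 and 3 fell in PL-NAc, PL-BLA and PL-VTA. The share called was 43.5%, 47.8% and 17.4%, close to the 43.1%, 41% and 21.5% of all tested genes. Ptprf, the receptor phosphatase LAR, rose at 1.01 (SE 0.095), 1.06 (SE 0.088) and 0.92 (SE 0.17), as listed in the authors' deposited table. Ctnnal1, an alpha-catenin-like gene, fell at -1.68 (SE 0.25), -1.59 (SE 0.25) and -1.14 (SE 0.36), as listed in the authors' deposited table. Nectin3, an adhesion protein of puncta adherentia, was -0.86 (SE 0.14), -0.14 (SE 0.14) and -1.39 (SE 0.25), as listed in the authors' deposited table, and was the 1 junction partner that differed, with PL-BLA above PL-VTA by 1.25 (adjusted p = 0.000738) and PL-NAc minus PL-BLA at -0.72 (adjusted p = 0.0232) in the Wald z test.

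Of 14 planar polarity partners, 0, 1 and 0 rose and 5, 7 and 4 fell in PL-NAc, PL-BLA and PL-VTA. Among all tested genes, 21.4%, 20.8% and 11% were higher and 21.7%, 20.2% and 10.5% lower. Fjx1, which modifies Fat and Dachsous cadherins, was 0.040 (SE 0.091) in PL-NAc, 0.045 (SE 0.092) in PL-BLA and -0.93 (SE 0.18) in PL-VTA in the authors' deposited table. It passed the Wald z test between PL-VTA and both others, at 0.97 for PL-NAc minus PL-VTA and 0.98 for PL-BLA minus PL-VTA, with adjusted p of 0.000181 and 0.000118. Vangl2, a core planar polarity gene, also differed, at -1.43 for PL-BLA minus PL-VTA (adjusted p = 0.0298, Wald z test). It was -0.51 (SE 0.26), -1.23 (SE 0.26) and 0.21 (SE 0.34) in PL-NAc, PL-BLA and PL-VTA, called in PL-BLA alone, in the authors' deposited table. Among 15 other genes with cadherin repeats, 9, 9 and 7 were tested, of which 2, 3 and 2 rose and 1 fell in each projection. The calsyntenins Clstn1 and Clstn3, postsynaptic cadherin-repeat proteins, rose in every IP, with Clstn1 at 0.41 (SE 0.054), 0.77 (SE 0.068) and 0.396 (SE 0.12), as listed in the authors' deposited table. Cdhr1, a photoreceptor cadherin, fell at -1.93 (SE 0.15), -0.94 (SE 0.16) and -1.35 (SE 0.24), as listed in the authors' deposited table. Both Clstn1 and Cdhr1 were lower in PL-NAc than in PL-BLA, by PL-NAc minus PL-BLA differences of -0.36 and -0.99 (adjusted p = 0.00646 and 0.00121, Wald z test).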

How the data were processed

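Polysome-bound (IP) and total (Input) RNA of 16 samples was sequenced. The submitters' processing notes name STAR 2.3, featureCounts, DESeq2 and the builds GRCm38 and mm10; which annotation and model were used is not given in the sources used here. Each deposited table gives the mean signal (normalized count), the log2 fold change with its standard error, the Wald score, and the p-value and adjusted p-value, per the file headers. The authors' log2 values appear shrunken: genes with a mean under 0.3 lay within 0.073 of 0. The plan put a count model first; with comparison tables, the authors' DESeq2 test was used. Mean counts summed to 15437849, 16347808 and 16520414, and the median SE (mean of 50 or more) was 0.124, 0.129 and 0.219 in PL-NAc, PL-BLA and PL-VTA, so PL-VTA detects only larger changes. Rows without a symbol held 0.240%, 0.227% and 0.235% of counts.

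Differences between projections were tested by a two-sided Wald z (difference over the root of summed squared SEs), adjusted by Benjamini-Hochberg over 21981, 21559 and 21613 genes. The calculation was run on simulated data (Python 3.11.15, scipy 1.17.1). Those data drew normal noise with the deposited SEs, so they cannot show whether these SEs or shrunken fold changes hold. Positions and exonic lengths are from GENCODE M21 (GRCm38), with all 49 members matched by ID and symbol. Members, lists and tests were chosen with earlier results of these data known. Members were named with values where called in a projection or pair, or at a mean of at least 500; others are given by count. Partner lists name at most the 2 highest and 2 lowest called genes, and Nectin3, Fjx1 and Vangl2 were named after their differences were seen.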

Additional observations from a re-analysis of the deposited data

Results flagged for a closer look

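In all, 13 differences between projections passed the Wald z test for members, and each is the first projection's log2 fold change minus the second's. For PL-NAc minus PL-BLA they were 0.52 for Cdh13 and -0.49 for Pcdh7. For PL-NAc minus PL-VTA they were -0.89 for Cdh8, 1.06 for Cdh10, -0.91 for Cdh13, -1.103 for Cdh22, -0.97 for Pcdh8 and -0.75 for Pcdh17. For PL-BLA minus PL-VTA they were -1.03 for Cdh8, 1.41 for Cdh10, -1.42 for Cdh13, -0.97 for Cdh22 and -1.26 for Pcdh17. The comparisons with PL-VTA rest on 2 IP and 2 Input libraries of that projection.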

How the results depend on the processing

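No paired analysis was possible because the deposited tables hold no per-library values, and for the same reason the planned edgeR and DESeq2 fits, the unfiltered count fit and leaving out each replicate were not run. No called log2 fold change or difference changed sign under the alternatives run. Recentring on the median of genes with a mean of at least 50 (shifts of 0.059, 0.055 and 0.065) gave 7 in place of 11 members higher in PL-NAc and 13 in place of 8 lower in PL-BLA. At an adjusted p under 0.01, 2 in place of 4 members were lower in PL-VTA, and 0 in place of 1 was lower in PL-NAc than in PL-BLA. All other counts of members stayed within 1.5 times. Per named member, recentring ended 5 calls and made 8, the 0.01 threshold ended 14 in projections and 2 between them, adjustment over every gene ended 2, and a mean of at least 50 made 3. A mean of at least 50 also leaves scarcer members untested. The calls of Cdh19 and Dchs1 in PL-NAc and PL-BLA and of Fat1 and Fat4 in PL-NAc drop out there. The difference tests made the same calls at the 0.05 threshold under all other alternatives run. With 2 libraries an arm, PL-VTA limits what can be detected, and fold changes of scarce genes may be understated if the authors' values are shrunken.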

Other observations

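Several members lie near each other in the genome (GRCm38), and their log2 fold changes are given in chromosomal order. On chromosome 15, Cdh6, Cdh9, Cdh10, Cdh12 and Cdh18 lie between 13028701 and 23474418. In PL-NAc they were -0.40, 0.44, 0.55, -0.82 and 0.12 in the authors' deposited table, of which Cdh9, Cdh10 and Cdh12 were called. In PL-BLA they were -0.47, 0.37, 0.89, -0.51 and 0.29, of which Cdh6, Cdh10 and Cdh12 were called, in the authors' deposited table. In PL-VTA they were 0.44, -0.42, -0.52, -1.098 and 0.21 in the authors' deposited table, of which Cdh12 was called.

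On chromosome 1, Cdh20, Cdh7 and Cdh19 lie between 104768529 and 110977584. The authors' deposited table gives -0.77, -0.49 and -1.67 in PL-NAc, all called. For PL-BLA the authors' deposited table gives -1.01, -0.43 and -0.92, with Cdh7 not called. For PL-VTA the authors' deposited table gives 0.032, 0.38 and -1.25, with Cdh19 called.

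On chromosome 14, Pcdh8, Pcdh17, Pcdh20 and Pcdh9 lie between 79766775 and 93890679. Their values in the authors' deposited table were 0.23, 0.297, -0.65 and -0.30 in PL-NAc, with Pcdh8 not called. PL-BLA values in the authors' deposited table were 0.599, -0.21, -0.34 and -0.36, with Pcdh8 and Pcdh9 called. PL-VTA values in the authors' deposited table were 1.20, 1.05, -0.28 and -0.60, with Pcdh20 not called.

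On chromosome 8, Cdh8, Cdh11, Cdh5, Cdh16, Cdh3, Cdh1, Cdh13 and Cdh15 lie in this order between 99024471 and 122867397. Cdh11 and Cdh13 rose in all 3 projections, Cdh15 in PL-NAc and PL-VTA and Cdh8 in PL-VTA, with the values given above. Cdh5 was -0.45, -0.23 and -0.37, Cdh3 was -0.16, -0.43 and -0.012, and Cdh1 was -0.38, -0.51 and -0.34 in PL-NAc, PL-BLA and PL-VTA in the authors' deposited table, none called, and Cdh16 had no reads.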
